A study of Arabidopsis thaliana with 9 samples.

Results

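The genes described here carry nitrate from the root medium to ammonium in Arabidopsis thaliana: the nitrate transporter NRT1.1, which is also a nitrate sensor, the high-affinity transporter NRT2.1, its partner protein NRT3.1, both nitrate reductase genes NIA1 and NIA2, the nitrite reductase gene NIR1, and NLP7, the transcription factor that turns on nitrate-responsive genes. They were chosen by locus identifier before any filter on level, and all 7 were found among the 25199 loci measured. Transcripts were sequenced from whole seedlings, 7 days old, in 9 libraries from 3 genotypes with 3 biological replicates each. All 3 genotypes shared the En2 (Enkheim) accession, growth on Murashige and Skoog agar plates in long days, and no treatment. The groups were En2 wild type, plants over-expressing the transcription factor RAV1, and the dominant bes1-D allele of BES1, a transcription factor of the brassinosteroid response that stays active in this mutant. The promoter that drives RAV1, the number of independent lines and whether plants were pooled are not stated.

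Plants take up nitrate through low-affinity and high-affinity transporters, and NRT2.1 reaches the plasma membrane only in complex with NRT3.1. In the cytosol nitrate reductase converts nitrate to nitrite, which enters plastids, where nitrite reductase converts it to ammonium with electrons from ferredoxin. Glutamine synthetase then binds the ammonium into amino acids. NRT1.1, NRT2.1, NIA1, NIA2 and NIR1 are textbook nitrate-inducible genes, and NLP7 is retained in the nucleus when nitrate is supplied.

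Levels are given in FPKM, fragment counts divided by transcript length and by the mapped fragments of the library, as the authors deposited them. Absolute depth is unknown, and relative depth was estimated at 83% to 113% of that of the first wild-type library. Per-library sums ran from 890880 to 971271 FPKM, and correlations of log2(FPKM + 1) across genes, which are not independent replicates, were 0.979 to 0.989 within groups and 0.949 to 0.983 between them. RAV1 itself stood at 71.4, 99.0 and 81.9 FPKM in the wild-type libraries, at 1064, 756 and 1426 FPKM in the over-expression libraries, and at 53.9, 58.3 and 33.2 FPKM in bes1-D. Its level thus went with the labels in all 9 libraries. The markers of green and root tissue fixed for these whole seedlings were all above 0 in every library.

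Across the whole table, 19740 loci had at least 1 FPKM in at least 3 libraries and were tested with limma on log2(FPKM + 1). Called here means a limma p that stayed under 0.05 after Benjamini-Hochberg adjustment across these loci, and a log2 change below is a difference on that scale with its standard error (SE). All 7 nitrate genes passed the filter. Where groups are said below not to overlap, the share of all loci without overlap was not counted. Both comparisons with wild type share the wild-type libraries, so RAV1 over-expression was also compared with bes1-D directly. Since nothing but the word biological describes how the replicates were grown, the p-values measure the spread between these libraries.

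The 4 genes called against wild type in either line were NRT2.1, NRT3.1, NIA2 and NIR1. Their promoters are shown because RAV1 and BES1 are DNA-binding proteins with known recognition sequences. Each window holds the 250 bases before the annotated gene start in the RefSeq annotation of the TAIR10.1 build, on the gene's own strand, and all 4 genes lie on the plus strand. The authors' TAIR10 table gives no coordinates, so genes were matched by locus identifier. Capitals mark CAACA or its reverse complement TGTTG (bound by the AP2 domain of RAV1), CANNTG (the E-box, bound by BES1 among others), and CGTGTG or CGTGCG (brassinosteroid response element).
NRT2.1 chr1:2523773-2524022: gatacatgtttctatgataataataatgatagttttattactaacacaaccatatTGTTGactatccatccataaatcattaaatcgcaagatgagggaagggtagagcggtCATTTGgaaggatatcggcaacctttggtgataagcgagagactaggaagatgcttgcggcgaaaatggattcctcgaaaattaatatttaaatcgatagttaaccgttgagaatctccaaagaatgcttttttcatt
NRT3.1 chr5:20435930-20436179: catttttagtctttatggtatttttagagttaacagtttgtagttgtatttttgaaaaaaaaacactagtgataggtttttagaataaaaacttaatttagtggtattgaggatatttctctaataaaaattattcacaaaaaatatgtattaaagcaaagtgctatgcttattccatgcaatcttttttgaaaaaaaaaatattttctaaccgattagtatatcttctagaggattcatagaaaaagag
NIA2 chr1:14158202-14158451: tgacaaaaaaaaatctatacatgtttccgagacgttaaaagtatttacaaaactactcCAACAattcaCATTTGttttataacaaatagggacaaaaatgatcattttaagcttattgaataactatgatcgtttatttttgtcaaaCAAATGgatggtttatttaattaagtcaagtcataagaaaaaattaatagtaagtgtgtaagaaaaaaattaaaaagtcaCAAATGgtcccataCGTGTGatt
NIR1 chr2:6810145-6810394: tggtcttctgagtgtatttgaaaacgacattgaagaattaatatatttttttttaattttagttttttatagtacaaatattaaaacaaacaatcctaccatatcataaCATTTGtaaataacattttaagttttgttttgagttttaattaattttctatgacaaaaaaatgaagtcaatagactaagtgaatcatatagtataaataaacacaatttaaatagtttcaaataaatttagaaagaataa

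All motifs were searched on both strands. In the NRT2.1 window TGTTG ran from base 195 to base 191 before the gene start, and in the NIA2 window CAACA ran from base 192 to base 188. CAACA also stood in the windows of NRT1.1 and NLP7, which makes 4 of 7 genes, and 47.1% of 23312 promoter windows of the same length held it. CACCTG, which the B3 domain of RAV1 binds, was in none of the 7 windows and in 2.59% of all windows. The E-box was in 5 of the 7 windows and 56.2% of all, and the NIA2 window held 3 of them. The brassinosteroid response element was found in NIA2, as CGTGTG from base 9 to base 4, and in 6.94% of all windows. The palindromic E-box CACGTG, a special case of CANNTG, was in none of the 7 and in 7.14% of all. The core of the nitrate-responsive element, CTT and AAG with 10 bases between, was in none of the 7 and in 7.69% of all. These are matches of letters in one window and say nothing of binding.

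In RAV1 over-expression, 3 of the 7 genes fell: NIR1 to 0.597 times, NIA2 to 0.766 times and NRT2.1 to 0.142 times its wild-type mean. Over all loci tested, 23.0% were called in this comparison, 15.0% as higher and 8.01% as lower. None of the 7 was called as higher with limma, though NIA1 and NRT3.1 were higher at an unadjusted p under 0.05, 2 genes in all. The median log2 change of the 7 genes was -0.10, against 0.09 for all loci tested. In bes1-D, 1 of the 7 fell, NRT3.1, to 0.567 times its wild-type mean. None was higher with limma, and 0 were at an unadjusted p under 0.05, at which NRT2.1 was lower too. Over all loci 7.96% were called, 2.19% as higher and 5.77% as lower, so a count of 1 among 7 is close to that background. Between both lines directly, NIR1, NIA2 and NLP7 were lower in RAV1 over-expression and NRT3.1 was higher, with 38.5% of all loci called, 28.0% as higher and 10.6% as lower.

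**Figure D1:**
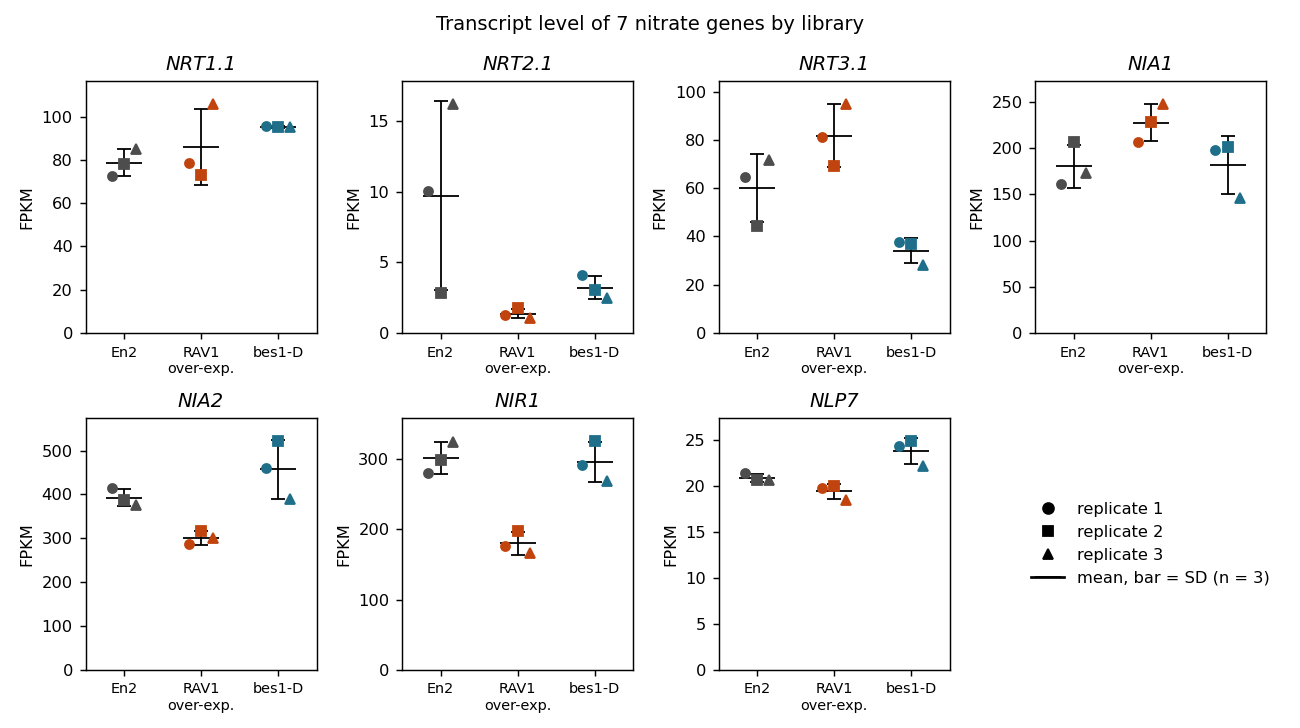
Transcript level in FPKM (vertical axes, each from 0) of the 7 nitrate genes in each of the 9 libraries, by genotype (horizontal axis), with the group mean and SD (n = 3). The RAV1 over-expression libraries lie below every wild-type library for NRT2.1, NIA2 and NIR1, and the bes1-D libraries lie below every wild-type library for NRT3.1. Genes that were not called also separate from wild type, and the share of all loci that separate in this way was not counted. RAV1 over-expression lies below it for NLP7 and above it for NIA1, and bes1-D lies above it for NRT1.1 and NLP7.

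In TAIR10.1 the genes lie at chr1:4105223-4109601 (NRT1.1, AT1G12110), chr1:2524023-2526322 (NRT2.1, AT1G08090), chr5:20436180-20437815 (NRT3.1, AT5G50200), chr1:29235721-29239484 (NIA1, AT1G77760, minus strand), chr1:14158452-14161938 (NIA2, AT1G37130), chr2:6810395-6812941 (NIR1, AT2G15620) and chr4:12479528-12484049 (NLP7, AT4G24020). The steps of nitrate reduction gave the most abundant of these transcripts. In wild type the mean level was highest for NIA2, at 393 ± 20.4 FPKM (SD, n = 3), followed by NIR1 at 301 ± 22.5, NIA1 at 180 ± 23.3, NRT1.1 at 78.7 ± 6.16, NRT3.1 at 60.2 ± 14.2, NLP7 at 20.9 ± 0.433 and NRT2.1 at 9.72 ± 6.69 FPKM. No neighbours in that order had overlapping wild-type ranges. NRT1.1 and NRT3.1 came closest, at 72.7 FPKM for the lowest of the former and 71.5 FPKM for the highest of the latter. The order in bes1-D was the same. In RAV1 over-expression NIA1 stood above NIR1 in each of the 3 libraries, while NIR1 stood above NIA1 in all 6 other libraries.

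NIR1 (AT2G15620) encodes nitrite reductase, the plastid enzyme that makes ammonium from nitrite. Its level was 280, 298 and 325 FPKM in wild-type replicates 1 to 3, 176, 198 and 166 FPKM with RAV1 over-expressed, and 291, 326 and 269 FPKM in bes1-D. Every RAV1 over-expression library was below every other library. The mean fell by 40.3% against wild type, a log2 change of -0.74 (SE 0.10, limma adjusted p = 0.00131). It was lower than in bes1-D by a log2 change of -0.71 (SE 0.10, limma adjusted p = 0.000793). Wild type and bes1-D overlapped, with a log2 change of -0.03 and a 95% confidence interval from -0.26 to 0.20 (limma adjusted p = 0.907). The lower NIR1 level in RAV1 over-expression was called under every alternative tried, with limma adjusted p from 0.000949 to 0.00926 against wild type.

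NIA2 (AT1G37130) encodes the nitrate reductase isozyme that accounts for most of the enzyme activity in Arabidopsis shoots. It stood at 416, 387 and 376 FPKM in wild-type replicates 1 to 3, at 286, 317 and 300 FPKM with RAV1 over-expressed, and at 461, 523 and 389 FPKM in bes1-D. All RAV1 over-expression libraries were below all others, while wild type and bes1-D overlapped. The mean in RAV1 over-expression fell by 23.4% against wild type, a log2 change of -0.38 (SE 0.11, limma adjusted p = 0.0314). This call rested on the full set of libraries: leaving out wild-type replicate 1, 2 or 3 gave limma adjusted p = 0.105, 0.0839 and 0.0595, and leaving out RAV1 over-expression replicate 1 or 3 gave 0.112 and 0.0782. With quantile normalization it was 0.0565. Against bes1-D the log2 change was -0.59 (SE 0.11, limma adjusted p = 0.00276), and this difference was called under every alternative.

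NIA1 (AT1G77760) encodes the other nitrate reductase isozyme, which is known for its rapid response to nitrate and cytokinin. Its level was 161, 206 and 173 FPKM in wild-type replicates 1 to 3, 207, 228 and 248 FPKM with RAV1 over-expressed, and 198, 201 and 146 FPKM in bes1-D. The RAV1 over-expression libraries were the 3 highest, though the lowest of them exceeded the highest wild-type library by less than 1 FPKM. The log2 change against wild type was 0.34 (SE 0.14), which did not pass the threshold (limma adjusted p = 0.108). It passed in the fit without bes1-D replicate 3 (limma adjusted p = 0.0408). The log2 change in bes1-D was 0.00, with a 95% confidence interval from -0.31 to 0.32 (limma adjusted p = 0.992).

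The isozymes can also be set against each other within each library, a ratio that no scaling of a whole library changes. NIA1 stood at 0.388, 0.533 and 0.461 times NIA2 in wild type, at 0.724, 0.721 and 0.827 times in RAV1 over-expression, and at 0.430, 0.385 and 0.375 times in bes1-D. The RAV1 over-expression ratios lay above all others, which follows from the levels above, since these libraries held the 3 highest NIA1 and the 3 lowest NIA2 values. The ratios of the other groups overlapped. The log2 ratio differed by 0.73 (SE 0.15) between RAV1 over-expression and wild type and by 0.93 (SE 0.09) between RAV1 over-expression and bes1-D. Between bes1-D and wild type it differed by -0.21 (SE 0.15, exact two-sided permutation p = 0.2, where 0.1 is the smallest that 3 against 3 libraries allow). The summed level of both genes was 573 ± 22.3 FPKM in wild-type libraries, 529 ± 30.6 FPKM with RAV1 over-expressed (exact p = 0.1 against wild type, the smallest possible) and 639 ± 96.4 FPKM for bes1-D (exact p = 0.4; SD, n = 3 each). NIA1 supplied 31.4% ± 3.41 of that sum in wild-type libraries, 43.1% ± 1.93 with RAV1 over-expressed and 28.4% ± 1.47 for bes1-D.

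The isozymes are alike in sequence, each 917 residues long with 713 of 927 aligned positions identical (76.9%) in the annotated proteins. Their coding sequences share no run longer than 20 bases, so reads of 100 bases can be told apart between them. None of the 7 genes overlaps another annotated gene on either strand in TAIR10.1.

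Against the summed nitrate reductase transcripts, NIR1 stood at 0.486, 0.503 and 0.592 in wild type, at 0.356, 0.364 and 0.302 in RAV1 over-expression, and at 0.442, 0.451 and 0.504 in bes1-D. The transcripts of the second reduction step were thus lower relative to the first in each RAV1 over-expression library than in any other library. The log2 ratio differed from wild type by -0.63 (SE 0.12) and from bes1-D by -0.45 (SE 0.10), each with the smallest exact p of 0.1. Between bes1-D and wild type it differed by -0.18 (SE 0.11, exact p = 0.3).

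**Figure D2:**
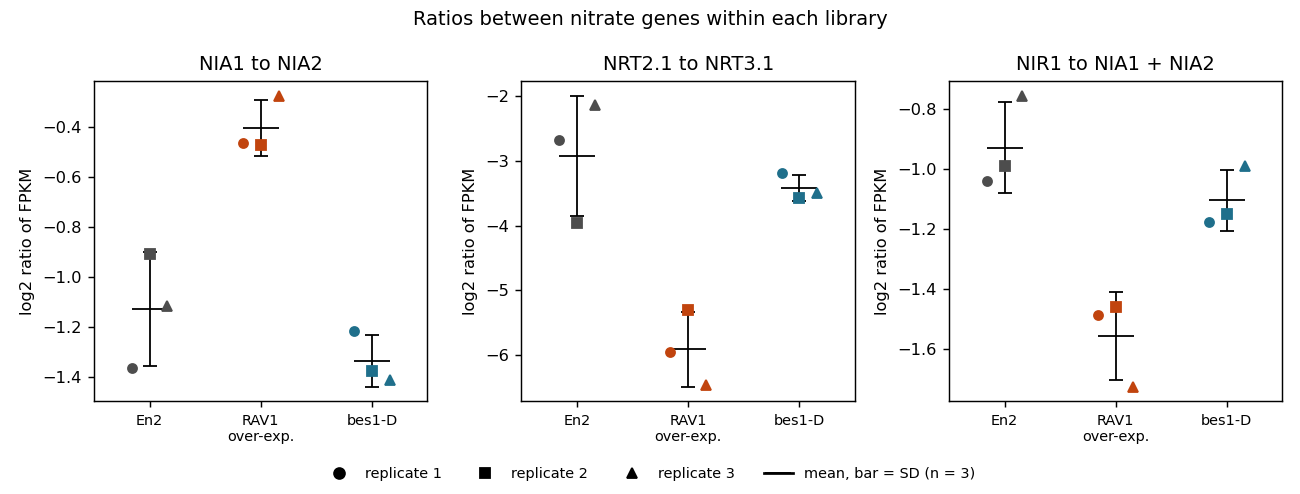
Ratios on a log2 scale of FPKM (vertical axes, each with its own range) within each of the 9 libraries, by genotype (horizontal axis), with the mean and SD (n = 3). From left to right the panels give NIA1 to NIA2, NRT2.1 to NRT3.1, and NIR1 to the sum of NIA1 and NIA2, and in each of them the RAV1 over-expression libraries do not overlap the others.

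NRT2.1 (AT1G08090) is the main high-affinity nitrate transporter of the root and is best known from low-nitrate conditions. It was the least abundant of the 7 genes in all 9 libraries, at 10.08, 2.86 and 16.2 FPKM in wild-type replicates 1 to 3, at 1.31, 1.75 and 1.08 FPKM with RAV1 over-expressed, and at 4.12, 3.08 and 2.47 FPKM in bes1-D. The wild-type libraries spread over a wider range than those of either line, and all RAV1 over-expression libraries were below the rest. The mean in RAV1 over-expression was 0.142 times that of wild type, and the log2 change was -1.93 (SE 0.45, limma adjusted p = 0.0152). Without wild-type replicate 1 the limma adjusted p was 0.0511, and without RAV1 over-expression replicate 3 it was 0.0542. In bes1-D the log2 change was -1.11 (SE 0.45, limma adjusted p = 0.174), and its libraries overlapped wild type through wild-type replicate 2. Without that library the log2 change was -1.73 and passed (limma adjusted p = 0.00925), and so did the difference between RAV1 over-expression and bes1-D (limma adjusted p = 0.0176, against 0.174 with all libraries). That difference was also called when only these groups were fitted (limma adjusted p = 0.0166). NRT2.1 and its neighbour NRT2.2 share 88.3% of their coding bases and a run of 170 bases, and 3.53% of the 100-base windows of NRT2.1 also occur in NRT2.2. Reads from those stretches cannot be assigned with certainty. NRT2.2 (AT1G08100) is not among the loci of the authors' table, so no level of it could be set beside NRT2.1.

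NRT3.1 (AT5G50200) encodes the small partner protein that NRT2.1 needs to reach the membrane. Its level was 64.7, 44.3 and 71.5 FPKM in wild-type replicates 1 to 3, 81.3, 69.1 and 94.8 FPKM with RAV1 over-expressed, and 37.7, 36.7 and 28.0 FPKM in bes1-D. The bes1-D libraries were the 3 lowest, and RAV1 over-expression overlapped wild type. The mean in bes1-D fell by 43.3% against wild type, a log2 change of -0.78 (SE 0.19, limma adjusted p = 0.0347). Of the 9 fits that left out 1 library, 6 lost this call: the limma adjusted p was 0.110 and 0.106 without wild-type replicates 1 and 3, 0.0563, 0.0691 and 0.0896 without bes1-D replicates 1, 2 and 3, and 0.0581 without RAV1 over-expression replicate 1. With no filter on low values it was 0.0545, and without limma's trend and robust options it was 0.0503. In RAV1 over-expression the log2 change against wild type was 0.45 (SE 0.19, limma adjusted p = 0.110). Set directly against bes1-D, RAV1 over-expression was 2.39 times as high, with a log2 change of 1.24 (SE 0.19, limma adjusted p = 0.00110) that was called under every alternative.

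The transporter and its partner thus did not keep one ratio. NRT2.1 stood at 0.156, 0.0646 and 0.227 times NRT3.1 in the wild-type libraries, at 0.0161, 0.0253 and 0.0114 times in RAV1 over-expression, and at 0.109, 0.0839 and 0.0882 times in bes1-D. Every RAV1 over-expression ratio was below every other, while bes1-D lay above wild-type replicate 2 and below the other wild-type libraries. The log2 ratio differed from wild type by -2.98 (SE 0.63) in RAV1 over-expression and by -0.50 (SE 0.55, exact p = 0.4) in bes1-D. The bes1-D difference was -1.01 without wild-type replicate 2 and -0.11 without wild-type replicate 3. It differed by -2.48 (SE 0.35) between both lines, and both differences of RAV1 over-expression had the smallest exact p of 0.1.

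NRT1.1 (AT1G12110) works in both low-affinity and high-affinity uptake and also senses nitrate. It stood at 72.7, 78.2 and 85.0 FPKM in wild-type replicates 1 to 3, at 78.7, 73.1 and 105.8 FPKM with RAV1 over-expressed, and at 95.6, 95.0 and 95.0 FPKM in bes1-D. The bes1-D libraries lay above all wild-type libraries and close together, and the RAV1 over-expression range overlapped both. The log2 change was 0.11 (SE 0.13, limma adjusted p = 0.562) in RAV1 over-expression and 0.27 (SE 0.13, limma adjusted p = 0.227) in bes1-D. Their 95% confidence intervals ran from -0.17 to 0.39 and from -0.01 to 0.56. Between both lines the log2 change was -0.16 (SE 0.13, limma adjusted p = 0.318), and without RAV1 over-expression replicate 3 it was -0.32 and passed (limma adjusted p = 0.0320).

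NLP7 (AT4G24020) is regulated mainly through the place of its protein in the cell, and its transcript kept within 18.5 to 25.0 FPKM in all 9 libraries. Its level was 21.4, 20.6 and 20.7 FPKM in wild-type replicates 1 to 3, 19.8, 20.02 and 18.5 FPKM with RAV1 over-expressed, and 24.4, 25.0 and 22.2 FPKM in bes1-D. The ranges of the 3 groups did not overlap, with bes1-D highest, and how many of all loci show this was not counted. Against wild type the log2 change was -0.10 (SE 0.08, limma adjusted p = 0.408) in RAV1 over-expression and 0.18 (SE 0.08, limma adjusted p = 0.231) in bes1-D, and neither passed. Between both lines the log2 change was -0.28 (SE 0.08, limma adjusted p = 0.0249). This call was lost without RAV1 over-expression replicate 1 or 3 (limma adjusted p = 0.0616 and 0.0794), without bes1-D replicate 1 or 2 (0.0553 and 0.0813), and when only these groups were fitted (0.0619).

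**Figure D3:**
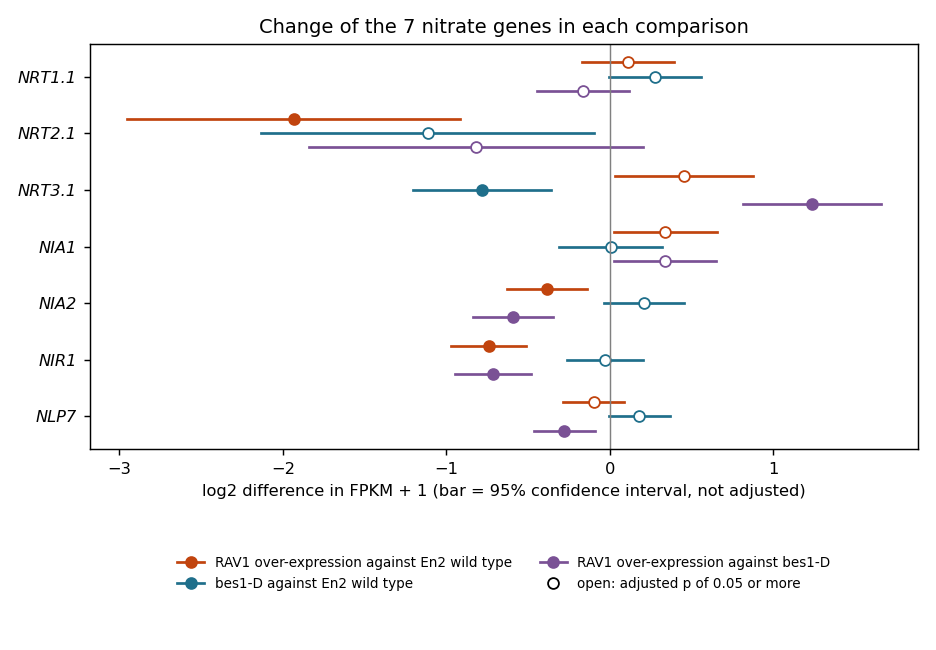
Log2 difference in FPKM + 1 (horizontal axis) of each of the 7 nitrate genes (vertical axis) in the 3 comparisons, with 95% confidence intervals that are not adjusted for the number of genes. Filled points have a limma adjusted p under 0.05: NRT2.1, NIA2 and NIR1 in RAV1 over-expression against wild type, NRT3.1 in bes1-D against wild type, and NRT3.1, NIA2, NIR1 and NLP7 between both lines.

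The scale between libraries bears on these values. Over all loci tested, the median log2 change between RAV1 over-expression and bes1-D was 0.19 as deposited and 0.03 after trimmed-mean scaling, and the share of called loci that were higher in RAV1 over-expression was 72.6% as deposited and 45.8% after that scaling. Against wild type that share was 65.2% and 46.8% in RAV1 over-expression, and 27.5% and 45.3% in bes1-D. With trimmed-mean scaling the log2 change of NIR1 in RAV1 over-expression was -0.85, that of NIA2 -0.49 and that of NRT2.1 -1.99, and that of NRT3.1 in bes1-D was -0.71. All 4 were called with it. With quantile normalization the higher share was 47.6% in RAV1 over-expression against wild type, 41.7% in bes1-D against wild type and 47.7% between both lines.

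Tissue markers moved along with the RAV1 over-expression libraries. In bulk seedlings, fewer cells of a type and less RNA per cell cannot be told apart. The summed level of 10 green tissue genes ran from 51477 to 54748 FPKM in wild type, from 25703 to 36933 FPKM in RAV1 over-expression and from 56771 to 61729 FPKM in bes1-D. All 10 were lower in RAV1 over-expression than in wild type, with LHCB1.3, a light-harvesting protein gene, at 0.466 times its wild-type mean and PSAF, a photosystem I subunit gene, at 0.609 times. All 10 were called as lower, where 8.01% of all loci were. With quantile normalization 3 of the 10 were called. The summed level of 11 root genes ran from 142 to 167 FPKM in wild type, from 197 to 203 FPKM in RAV1 over-expression and from 92.9 to 118.4 FPKM in bes1-D. EXPA7, an expansin of root hair cells, was 1.83 times as high in RAV1 over-expression and 0.331 times as high in bes1-D as in wild type. COBL9, another root hair gene, stood at 4.84 ± 1.02 FPKM in RAV1 over-expression and 5.29 ± 0.515 FPKM in wild type, and the means of PLT2, WER and CASP1 were also lower there. The median log2 change of the list in RAV1 over-expression was 0.15, against 0.09 for all loci tested, and 8 of the 11 were not called. Of the root genes 3 (27.3%) were called higher in RAV1 over-expression and 5 (45.5%) lower in bes1-D, against 23.0% and 7.96% of all loci called. Those counts were 1 and 3 after trimmed-mean scaling. The count in RAV1 over-expression was 1 without wild-type replicate 2 or 3 or over-expression replicate 1 or 3, and 5 without bes1-D replicate 1. The count in bes1-D was 1 without wild-type replicate 2, 2 without wild-type replicate 1 or bes1-D replicate 2 or 3, and 3 without wild-type replicate 3 or RAV1 over-expression replicate 1. The part of these markers in the nitrate results was not tested.

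Seed maturation genes, which are normally silent after germination, were unequal among the RAV1 over-expression libraries. Their summed level was 446, 136 and 1630 FPKM in replicates 1 to 3, against 17.7 to 32.5 FPKM in wild type and 21.9 to 35.3 FPKM in bes1-D. Of the 7 listed genes, EM1 and PAP85 were at 0 in some wild-type or bes1-D libraries, and the others were above 0 in all. The order of these libraries by the seed sum, from replicate 2 over replicate 1 to replicate 3, was also that of some nitrate genes, rising or falling. In that order NIR1 stood at 198, 176 and 166 FPKM, NRT2.1 at 1.75, 1.31 and 1.08 FPKM and NRT3.1 at 69.1, 81.3 and 94.8 FPKM. NRT1.1 stood at 73.1, 78.7 and 105.8 FPKM and NLP7 at 20.02, 19.8 and 18.5 FPKM. The green tissue sum, at 36933, 30689 and 25703 FPKM, and RAV1, at 756, 1064 and 1426 FPKM, kept that order too. NIA2 did not keep it, at 317, 286 and 300 FPKM, and neither did NIA1, at 228, 207 and 248 FPKM. An order of 3 libraries can arise by chance, and how many of all loci keep it was not tested. The part of the seed genes in the nitrate results was not tested. EM1 and PAP85 passed the filter through the RAV1 over-expression libraries alone, so their calls follow from the filter. The other 5 seed genes were called higher than in wild type, where 15.0% of all loci were called as higher. Of these 5, 2 were called without RAV1 over-expression replicate 1 or wild-type replicate 2, and 3 without wild-type replicate 1 or 3. Genes of the circadian clock, some of which peak at a set hour, were called as higher in 4 and lower in 1 of 9 cases in RAV1 over-expression. That is 55.6% of the list, against 23.0% of all loci called, 15.0% as higher and 8.01% as lower. The higher count was 1 without wild-type replicate 2 or over-expression replicate 1 or 3, and 2 without wild-type replicate 1 or 3. It was also 2 with no filter, trimmed-mean scaling, quantile normalization, the replicate block, or limma without trend and robust options. TOC1, an evening gene, stood at 42.4 FPKM against 19.0 FPKM in wild type (limma adjusted p = 0.000914). The hour of harvest is not stated, and its part in these results was not tested. Of the clock genes 1 was called in bes1-D, PRR7, at 67.8 FPKM against 54.4 FPKM (limma adjusted p = 0.0411), and this call was lost without any one of wild-type replicates 1 to 3 (limma adjusted p = 0.0900, 0.125 and 0.134), RAV1 over-expression replicates 1 and 2 (0.0752 and 0.0525) or bes1-D replicates 1 and 2 (0.0737 and 0.136). This 1 gene is 11.1% of the clock list, against 7.96% of all loci called in bes1-D. Without RAV1 over-expression replicate 3 or bes1-D replicate 3, 2 clock genes were called. With trimmed-mean scaling or quantile normalization 3 were called, PRR7, TOC1 and LUX. With the replicate block or without limma's trend and robust options 0 were called, PRR7 having a limma adjusted p of 0.0571 and 0.0679. When only these groups were fitted its adjusted p was 0.0732 and TOC1 was called in its place (0.0424).

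**Figure D4:**
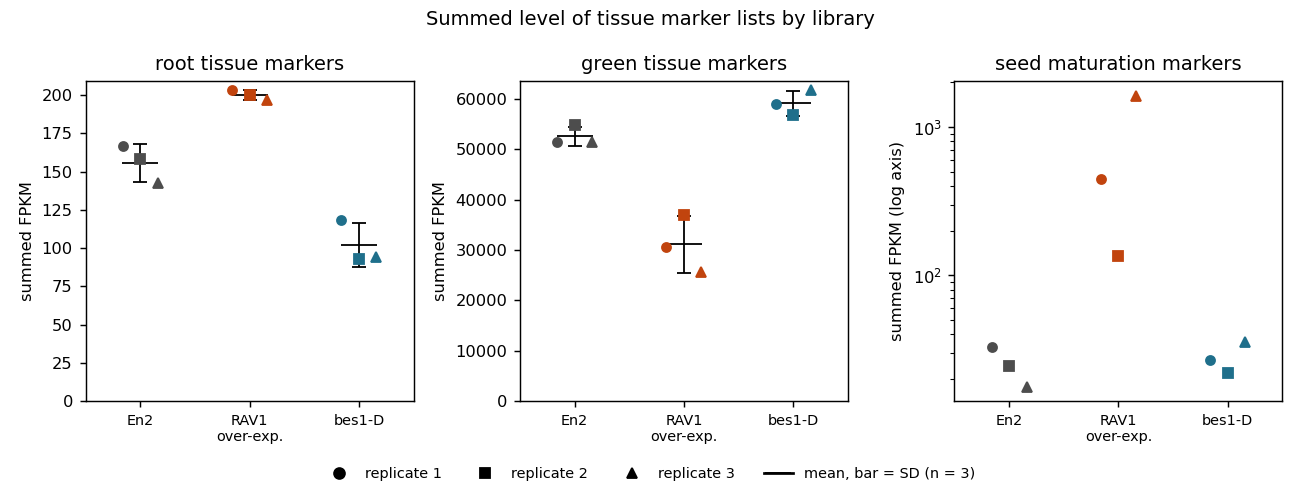
Summed FPKM of 11 root, 10 green tissue and 7 seed maturation genes in each library (vertical axes; the seed panel has a log axis), by genotype (horizontal axis), with mean and SD (n = 3) for the first 2 panels. The green tissue sum is lowest in RAV1 over-expression, and the root sum is highest there and lowest in bes1-D. Not all root genes follow the sum: the means of COBL9, PLT2, WER and CASP1 are lower in RAV1 over-expression than in wild type. The seed sums of RAV1 over-expression spread from 136 to 1630 FPKM.

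Beyond these 7, other nitrate transporter genes moved in both directions in RAV1 over-expression: 4 of 15 tested were higher and 4 lower (median log2 change -0.05). That is 53.3% of the list, against 23.0% of all loci called. The list share includes genes, named below, whose difference follows from the filter. NPF6.4, a close relative of NRT1.1, fell from 13.7 ± 4.35 to 1.51 ± 1.08 FPKM (SD, n = 3; log2 change -2.60, limma adjusted p = 0.000703). NPF6.2, known for nitrate storage in the petiole, fell from 52.8 ± 0.216 to 31.1 ± 5.96 FPKM (limma adjusted p = 0.00304). CLCA, the exchanger that loads nitrate into the vacuole, fell from 43.0 ± 4.79 to 26.1 ± 2.39 FPKM (limma adjusted p = 0.00219). All 3 kept their calls under every alternative. NRT2.6, a relative of NRT2.1, stood at 2.32 ± 1.16 FPKM against 0.300 ± 0.24 in wild type (limma adjusted p = 0.00551). NRT2.6 and NRT2.5 passed the filter through the RAV1 over-expression libraries alone, so their difference follows from the filter. The count of higher genes was 2 without wild-type replicate 1 or 2 or without RAV1 over-expression replicate 2, and 0 without RAV1 over-expression replicate 1 or 3. It was also 2 after trimmed-mean scaling.

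In bes1-D, 1 of these 15 transporter genes was higher with limma, and 0 were lower, also at an unadjusted p under 0.05. The share called was 6.67%, below the 7.96% of all loci called. The called gene was NRT1.12, which moves nitrate into the phloem of leaves, at 28.9 ± 2.32 FPKM against 20.7 ± 1.8 in wild type (limma adjusted p = 0.0208). The call was lost without wild-type replicate 1 or 2 or bes1-D replicate 2 (limma adjusted p = 0.0812, 0.0844 and 0.0672), and 2 of 13 genes were called without RAV1 over-expression replicate 3. Directly against bes1-D, RAV1 over-expression had 4 higher and 6 lower, with CLCA at 26.1 FPKM against 56.6 FPKM (limma adjusted p = 0.000114). NPF6.4 and NPF6.2 were also lower, at 0.0947 and 0.519 times the bes1-D mean. NRT2.6 was among the 4 higher ones, at 2.32 FPKM against 0.137 FPKM, and this difference follows from the filter. Without any one RAV1 over-expression library NRT2.6 and NRT2.5 did not pass the filter, and 2 of the 13 genes left were higher. Over all loci tested, 28.0% were called as higher and 10.6% as lower between both lines.

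Downstream of NIR1, 5 of 18 tested genes for ammonium uptake and assimilation were higher in RAV1 over-expression and 4 lower (median log2 change -0.08). That is 50% of the list, against 23.0% of all loci called. The list share includes a gene, named below, whose difference follows from the filter. ASN1, an asparagine synthetase known as a gene of darkness and carbon shortage, rose from 1.87 ± 0.595 to 16.8 ± 4.28 FPKM (log2 change 2.62, limma adjusted p = 0.000182). GDH2, a subunit of glutamate dehydrogenase, rose from 179 ± 19.3 to 367 ± 28.3 FPKM (limma adjusted p = 0.000658). GLN1;1, a cytosolic glutamine synthetase, rose from 205 ± 29.9 to 424 ± 121 FPKM (limma adjusted p = 0.00392). AMT1;2, an ammonium transporter of the root, fell from 7.5 ± 3.59 to 1.74 ± 0.846 FPKM (limma adjusted p = 0.00507). GLN1;5, named after its values were seen, is also among the 5 counted as higher, at 1.28 ± 0.157 FPKM against 0.543 ± 0.105 in wild type. It passed the filter through the RAV1 over-expression libraries alone, so its difference follows from the filter. Its call was lost with a pseudocount of 0.1 (limma adjusted p = 0.0646), trimmed-mean scaling (0.0578), quantile normalization (0.0668) and the replicate block (0.0629). It was also lost without any one of the wild-type replicates 1 to 3 (limma adjusted p = 0.0839, 0.0686 and 0.104) or bes1-D replicate 2 (0.0536). The calls of ASN1, GDH2, GLN1;1 and AMT1;2 held under every alternative, while the count of lower genes was 2 without RAV1 over-expression replicate 1. In bes1-D the asparagine synthetase gene ASN3 was the 1 called gene of this list, at 19.4 ± 1.1 FPKM against 29.2 ± 2.12 in wild type (limma adjusted p = 0.00649). That is 5.56% of the list, below the 7.96% of all loci called.

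Set directly against bes1-D, 6 genes of this list were higher in RAV1 over-expression and 4 lower. This made 55.6% of the list, where 38.5% of all loci were called. GLN2, the plastid glutamine synthetase that takes up the ammonium made by nitrite reductase, stood at 490 FPKM in RAV1 over-expression, 919 FPKM in bes1-D and 793 FPKM in wild type (limma adjusted p = 0.000887 against bes1-D). ASN1 and GLN1;1 were again higher, and so was ASN3, at 28.9 FPKM against 19.4 FPKM (limma adjusted p = 0.00152). The count of lower genes was 2 without RAV1 over-expression replicate 1 or 3 or bes1-D replicate 1 or 2, and when only these groups were fitted.

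Among regulators of the nitrate response, 7 of 25 tested fell and 1 rose in RAV1 over-expression, with a median log2 change of -0.17. The share called was 32%, against 23.0% of all loci. LBD39 and LBD37, repressors of nitrogen-responsive genes that nitrate induces, fell from 90.1 ± 0.283 to 50.3 ± 2.5 FPKM (limma adjusted p = 0.000411) and from 101 ± 8.65 to 71.3 ± 4.16 FPKM (limma adjusted p = 0.00492). BT2 and BT1, related genes of which BT2 is known to limit nitrate uptake, fell from 170 ± 2.33 to 103 ± 17.4 FPKM (limma adjusted p = 0.00286) and from 139 ± 17.1 to 41.7 ± 21.1 FPKM (limma adjusted p = 0.00474). All 4 were called under every alternative. The gene that rose was CPK10, a calcium-dependent kinase of nitrate signalling that was named after its value was seen, and its call was lost without RAV1 over-expression replicate 1 (limma adjusted p = 0.0552). The number of higher genes was 2 without RAV1 over-expression replicate 2 or bes1-D replicate 3.

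In bes1-D 3 of the 25 regulators fell and 1 rose. That is 16% of the list, against 7.96% of all loci called, 2.19% as higher and 5.77% as lower. HRS1, a nitrate-induced repressor in roots, fell from 35.1 ± 5.39 to 16.3 ± 1.55 FPKM (log2 change -1.05, limma adjusted p = 0.00155). LBD39 stood at 56.3 ± 5.91 FPKM (limma adjusted p = 0.00276) and LBD37 at 73.2 ± 5.14 FPKM (limma adjusted p = 0.0168), the latter call being lost without wild-type replicate 1 or 2 or bes1-D replicate 2 (limma adjusted p = 0.0599, 0.0774 and 0.0597). TGA4, a factor that acts on NRT2.1 in roots, was higher at 26.0 ± 1.4 FPKM against 19.1 ± 1.69 (limma adjusted p = 0.0255). That call was lost without wild-type replicate 1 or 3 (limma adjusted p = 0.0960 and 0.0762) or bes1-D replicate 1 or 2 (0.0618 and 0.0833).

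Between both lines HRS1 was 2.68 times as high in RAV1 over-expression as in bes1-D (limma adjusted p = 6.46e-05), and BT1, BT2 and TGA4 were lower, at 0.224, 0.487 and 0.690 times. In all, 2 regulators were higher and 6 lower, which is 32% of the list, against 38.5% of all loci called. The count of lower genes was 10 after trimmed-mean scaling. The count of higher genes was 1 without RAV1 over-expression replicate 1 or 3 or bes1-D replicate 3, when only these groups were fitted, and after either scaling.

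Nitrite reductase and nitrate reductase need reductant and cofactors, and 6 of 17 such genes were lower in RAV1 over-expression while 1 was higher, with a median log2 change of -0.20. The share called was 41.2%, against 23.0% of all loci. The list share includes a gene, named below, whose difference follows in part from the filter. G6PD3, a plastid glucose-6-phosphate dehydrogenase, fell from 42.7 ± 5.91 to 25.0 ± 0.503 FPKM (limma adjusted p = 0.00520). FD3, the root ferredoxin that passes electrons to nitrite reductase, fell from 178 ± 4.48 to 143 ± 2.28 FPKM (limma adjusted p = 0.0106). RFNR2, a root ferredoxin-NADP reductase, fell from 44.2 ± 3.28 to 30.7 ± 4.22 FPKM (limma adjusted p = 0.0117). UPM1, which makes the precursor of the siroheme held by nitrite reductase, fell from 85.3 ± 8.03 to 63.2 ± 3.04 FPKM (limma adjusted p = 0.0157). G6PD3 and RFNR2 kept their calls under every alternative. FD3 lost its call without RAV1 over-expression replicate 1 (limma adjusted p = 0.0526), and UPM1 without wild-type replicate 2 (0.0706) or RAV1 over-expression replicate 1 or 3 (0.057 and 0.0544). The count of lower genes was 3 without wild-type replicate 2 and 2 without RAV1 over-expression replicate 1. MOT1, named after its values were seen, is also among the 6 counted as lower. It passed the filter through the wild-type libraries, at 1.19, 1.85 and 1.05 FPKM, with bes1-D replicate 2 at 1.05 FPKM. In RAV1 over-expression it stood at 0.32, 0.11 and 0.62 FPKM, so its difference follows in part from the filter.

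The 1 gene of this list that was higher was SIRB, which puts the iron into siroheme, at 47.3 ± 2.22 FPKM against 38.1 ± 2.36 in wild type. It lost its call without any one of the 3 wild-type libraries (limma adjusted p = 0.117, 0.0596 and 0.0788) or without RAV1 over-expression replicate 1 or 3 (0.107 and 0.104). It was also lost with trimmed-mean scaling (limma adjusted p = 0.141), quantile normalization (0.143), the replicate block (0.0595) and without limma's trend and robust options (0.0515). The count of higher genes was 2 without bes1-D replicate 1 or 3 and when only these groups were fitted. In bes1-D limma called 0 of the 17 (4 were lower at an unadjusted p under 0.05), and 1 was called as lower without bes1-D replicate 2. Over all loci 7.96% were called in bes1-D. Between both lines 2 were higher and 2 lower, UPM1 and RFNR2 being the lower ones at 0.695 and 0.684 times. This made 23.5% of the 17 genes, below the 38.5% of all loci called. After trimmed-mean scaling 8 were lower and 0 higher. Without bes1-D replicate 1 the lower count was 6, and without RAV1 over-expression replicate 1 the higher count was 1.

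**Figure D5:**
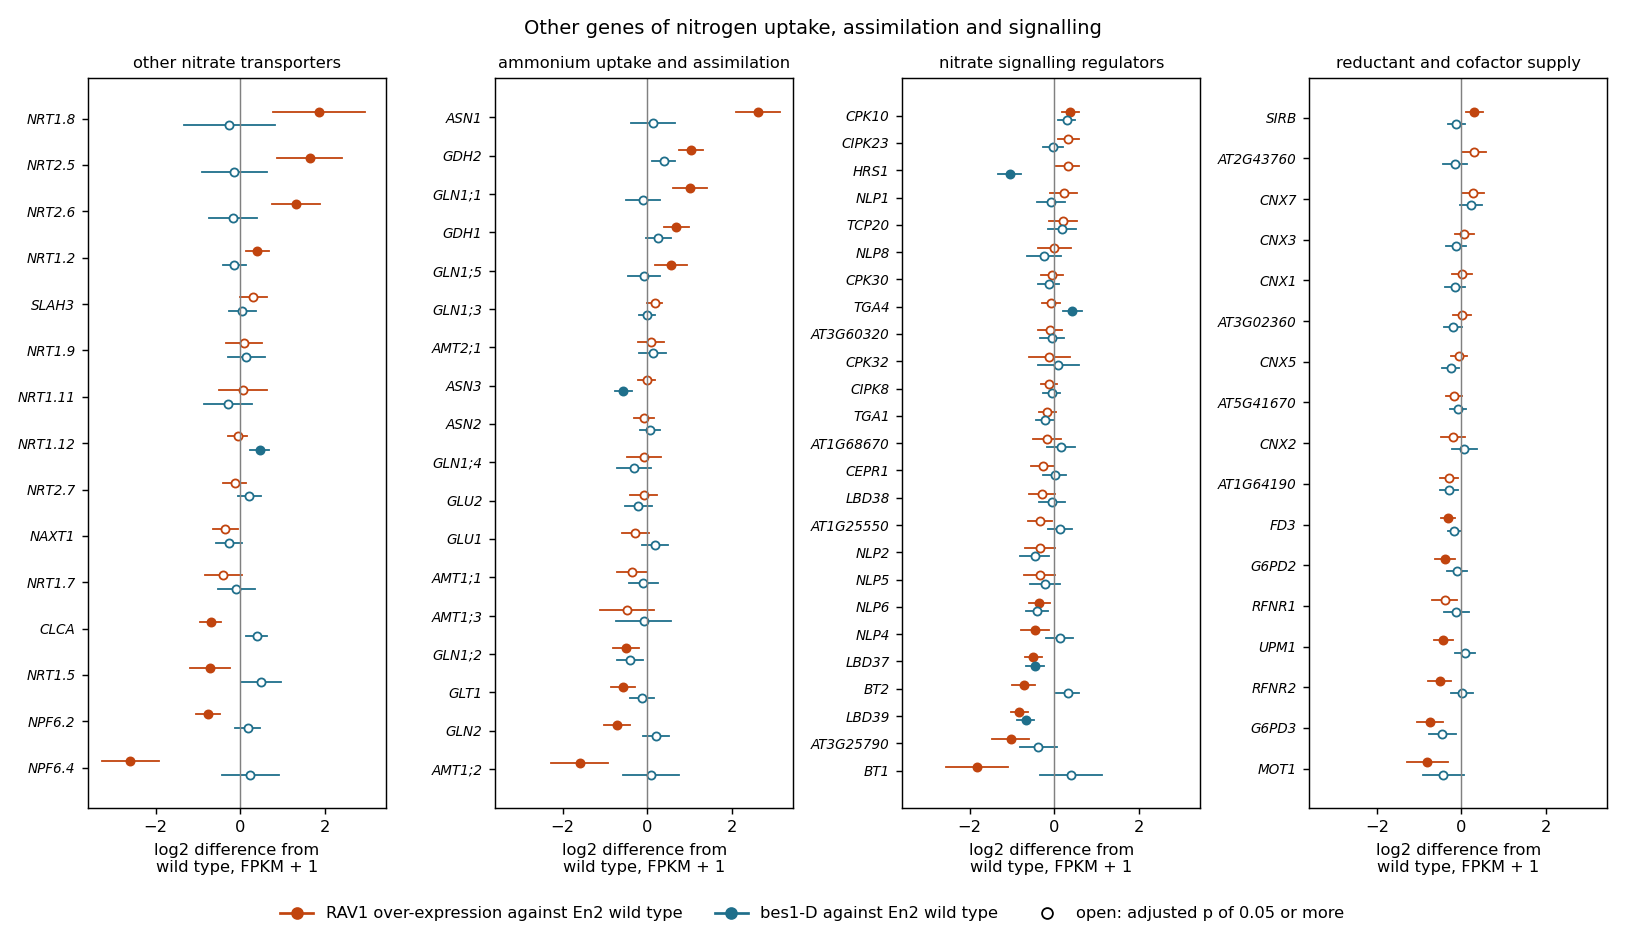
Log2 difference from wild type in FPKM + 1 (horizontal axes) of the tested genes of 4 lists (vertical axes, one panel per list), for RAV1 over-expression and bes1-D, with 95% confidence intervals not adjusted for the number of genes. Filled points have a limma adjusted p under 0.05. In RAV1 over-expression 8 of 15 transporter genes, 9 of 18 ammonium genes, 8 of 25 regulators and 7 of 17 reductant and cofactor genes are filled. Over all loci tested, 23.0% were called in this comparison. Some filled transporter and ammonium genes passed the filter through the RAV1 over-expression libraries alone, so their calls follow from the filter. A filled cofactor gene passed mostly through wild-type libraries, so its call follows in part from the filter.

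The genes whose pattern over the 9 libraries was most like that of each nitrate gene were taken from 15743 tested loci with a group mean of at least 5 FPKM. The measure was Pearson's r of log2(FPKM + 1). It is a description, since the libraries share genotypes and depth. NIR1 was most like RLM3, a disease resistance gene (r = 0.987), which stood at 83.2, 51.1 and 87.4 FPKM on average in wild type, RAV1 over-expression and bes1-D. NIA2 was most like the unnamed locus AT5G45350 (r = 0.990) and TTL4 (r = 0.984), and NRT3.1 was most like AT4G17800 (r = 0.990). NRT2.1 had among its most alike loci GRP2 (r = 0.913) and CLC-B, a chloride channel family gene (r = 0.910), which stood at 9.99, 6.39 and 7.27 FPKM. NRT1.1 was most like ZIP11, a metal transporter gene (r = 0.952), NIA1 most like BPC6 (r = 0.961), and NLP7 most like OPT7 (r = 0.987) and the clock gene PRR7 (r = 0.977). None of the 14 loci so taken was one of the 7 nitrate genes.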

How the data were processed

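The authors sequenced total RNA of whole seedlings as paired-end reads of 100 bases and deposited 1 table of FPKM values. The submitters' processing notes name the tools FastQC 0.10.1, TopHat2 and Cufflinks 2.1.1 and the TAIR10 build. Whether counting used strand is not given in the sources used here. Of 25199 loci, 25135 matched the TAIR10.1 gene table, 327 were at 0 throughout, and 1 value was blank in bes1-D replicate 1, so that locus (AT5G19720) was left out of the fit. No fragment counts were used, so no counting interval is given.

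From the deposited FPKM, log2(FPKM + 1) was fitted over all 9 libraries with limma 3.58.1 in R 4.3.3 (trend and robust options, 6 residual degrees of freedom, two-sided), for loci that reached 1 FPKM in 3 or more libraries. Adjusted p-values are Benjamini-Hochberg over 19740 loci, called under 0.05. Ratios within a library were compared by exact permutation of 3 against 3 libraries (scipy 1.17.1). Sequences and gene models come from RefSeq TAIR10.1, and alignments were made with Biopython 1.88. The fit was tested on simulated data.

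The 7 genes, the 8 other lists and the tests were chosen with earlier results of these data known. Named were all 7 genes in every comparison and up to 4 called genes with the smallest adjusted p per list and comparison. The 2 most alike loci were taken per gene, and the second was named only for NRT2.1, NIA2 and NLP7. Lists were matched by locus identifier. Alternatives changed the pseudocount, filter, scaling, limma options, groups fitted, replicate block and single libraries.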

Additional observations from a re-analysis of the deposited data

How the results depend on the processing

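The 3 called genes of the 7 in RAV1 over-expression against wild type became 1 to 4 when single libraries were left out, and the 1 called gene in bes1-D became 0 to 2. Between both lines 4 became 3 to 5. Of all loci, the calls ranged from 2644 to 5112 in RAV1 over-expression (4541 with all libraries; 2644 without its replicate 1, 2700 without wild-type replicate 2, 2798 without its replicate 3). In bes1-D they ranged from 616 to 1717 (1572 with all libraries; 616, 724 and 800 without wild-type replicates 2, 1 and 3, 840 without bes1-D replicate 2, and 1029 without RAV1 over-expression replicate 1). Between both lines they ranged from 5161 to 7153 (7604 with all). With no filter on low values, and without limma's trend and robust options, 0 of the 7 genes were called in bes1-D.

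Whether replicate numbers pair the libraries was not settled. Same-numbered libraries deviated together with correlations of -0.02, 0.12 and 0.04 in RAV1 over-expression and wild type. The values were 0.15, -0.03 and 0.09 in bes1-D and wild type, and -0.05, -0.08 and -0.07 in both lines. Different-numbered libraries gave -0.11 to 0.07, -0.16 to 0.07 and 0.002 to 0.07 in these comparisons. With 3 libraries per group these values cannot exclude pairing. With the number as a replicate block, 4354 loci were called for RAV1 over-expression, 1287 for bes1-D and 7208 between both lines, and 3, 1 and 4 of the 7 genes.

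The difference in the log2 ratio of NIA1 to NIA2 ranged from 0.61 to 0.84 in RAV1 over-expression against wild type when single libraries were left out, that of NRT2.1 to NRT3.1 from -3.49 to -2.59, and that of NIR1 to summed nitrate reductase from -0.68 to -0.54. In bes1-D against wild type these ranges were -0.32 to -0.10, -1.01 to -0.11 and -0.23 to -0.09. Among the marker genes, RBCS3B, a Rubisco subunit gene, changed sign with quantile normalization, to 0.12 against wild type and 0.22 against bes1-D. That method gives the most abundant transcripts the same values in every library by construction. Low levels such as those of NRT2.1 are limited by an unknown depth.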
